A study of Mus musculus with 15 samples.

Results

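Cancer-associated fibroblasts (CAFs) were followed in bulk RNA-seq of murine pancreatic ductal adenocarcinoma (PDAC) through 10 of their genes among the 55291 genes of the normalized count tables: Acta2, Pdpn, Fap, Postn, Thy1, Lum, Dcn, Cdh11, Fndc1 and Cpxm1. These genes were selected with their values in DRP-104 and vehicle tumors of the normalized count table known, so that difference is described without a test. A separate FPKM table of tumors was not the one used in the selection and was tested. The cultured tumor cells were used to show which of the genes are absent there. The genes were chosen with earlier results of these data known, so near-absence from cultures is described and is no independent finding. For the same reason the FPKM test is not fully independent of the selection. None of the 10 entered the main culture tests. CAFs are host cells that surround and invade pancreatic tumors, where they deposit the collagen-rich matrix known as desmoplasia. Myofibroblastic CAFs carry contractile and matrix genes, inflammatory CAFs secrete cytokines, and antigen-presenting CAFs carry MHC class II genes. TGF-beta, PDGF and hedgehog ligands from tumor cells are known to act on them.

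HY19636 is a murine PDAC line with mutant p53 by the labels of all 15 samples. Vehicle tumors (n = 3) and DRP-104 tumors (n = 3) grew from HY19636 cells in the pancreas of female B6J mice, 8 to 10 weeks old by the methods. DRP-104 is a pro-drug of 6-diazo-5-oxo-L-norleucine (DON), a glutamine (Gln) analog that blocks Gln-using enzymes. Its dose in orthotopic experiments was 3 mg per kg in 2 cycles of 5 days on and 2 days off. The cultures were untreated HY19636 cells (n = 3), cells with 25 µM DON for 24 h (n = 3) and cells without Gln for 24 h (n = 3). All groups came from 1 line, and the tumors hold fibroblasts, vessels, immune cells and pancreas of the host beside tumor cells. Fewer CAFs and less RNA per CAF cannot be told apart in bulk RNA.

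Tumor libraries held 16.3 to 20.7 M reads and culture libraries 25.2 to 48.2 M. In the normalized counts DRP-104 tumor 1 had 17981 genes above 0 at 18.5 M reads, against 22140 to 22524 in the other 5 tumors. The FPKM columns carry the names of the same tumors but not the same profiles. Over 10277 genes, deviations from each gene's mean over all tumors of a table correlated at -0.22 to 0.08 between columns of one name. The difference between treatments is part of these deviations. They were therefore used by treatment only and never matched to a tumor. Columns of control cells are headed as vehicle in the culture tables and were assigned by the group in the table's name. In DRP-104 tumor 3, the summed level of 12 T cell markers was 1694 normalized counts, against 63.1 to 129 in the other 5 tumors, so the CAF values are also given without this tumor.

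The 10 genes lie on 8 chromosomes in the coordinates of the FPKM table, and those positions match GRCm38. Dcn (chromosome 10 from 97479500 to 97518162) and Lum (chromosome 10 from 97565501 to 97572703), which encode small leucine-rich proteoglycans that bind collagen fibrils, are 47.3 kb apart on the plus strand. Fap (chromosome 2 from 62500943 to 62574075) and Cpxm1 (chromosome 2 from 130390775 to 130397574) share chromosome 2, both on the minus strand. Postn lies on chromosome 3 from 54361109 to 54391034, Pdpn on chromosome 4 from 143267431 to 143299564, and Cdh11 on chromosome 8 from 102632995 to 102785111. Thy1 lies on chromosome 9 from 44043384 to 44048579, Fndc1 on chromosome 17 from 7738569 to 7827302, and Acta2 on chromosome 19 from 34241090 to 34255336.

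RefSeq promoter sequence (GRCm38.p6) was at hand for 5 of the 10 genes: Acta2, Cpxm1, Fndc1, Pdpn and Postn. The 250 bases before the start are shown for Cpxm1, Fndc1 and Postn. Cpxm1 and Fndc1 had among the largest differences in the normalized counts they were selected on (not in FPKM). Both were near or at 0 in cultured tumor cells. Postn was the member with the most reads in vehicle tumors. Capitals mark a TATA box (TATAAA, either strand), which 12.4% of all 32851 promoter windows of this length hold. Cpxm1 (chr2:130397630-130397879, minus strand) held no match to the motifs named here. Fndc1 (chr17:7827303-7827552, minus strand) held a TATA box on the opposite strand, 219 bases before the start. Postn (chr3:54360857-54361106, plus strand) held it 26 bases before the start.
Cpxm1: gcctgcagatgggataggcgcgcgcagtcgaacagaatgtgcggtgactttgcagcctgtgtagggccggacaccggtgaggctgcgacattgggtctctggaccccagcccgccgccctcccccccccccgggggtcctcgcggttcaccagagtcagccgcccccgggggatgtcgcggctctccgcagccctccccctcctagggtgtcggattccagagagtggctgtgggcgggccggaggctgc
Fndc1: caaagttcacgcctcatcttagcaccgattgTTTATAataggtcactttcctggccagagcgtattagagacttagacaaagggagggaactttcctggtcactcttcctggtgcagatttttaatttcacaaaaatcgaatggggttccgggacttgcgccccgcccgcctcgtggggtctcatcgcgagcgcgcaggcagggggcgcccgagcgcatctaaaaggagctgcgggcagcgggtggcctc
Postn: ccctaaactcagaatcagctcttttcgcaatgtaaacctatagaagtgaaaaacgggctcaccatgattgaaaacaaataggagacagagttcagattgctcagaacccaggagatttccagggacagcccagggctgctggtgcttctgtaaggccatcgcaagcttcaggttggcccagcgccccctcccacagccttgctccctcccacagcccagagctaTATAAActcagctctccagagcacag

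The Acta2 window held a TEAD site (GGAATG, in 12.6% of windows), a SMAD site (GTCTG, 42.2%) and an E-box (CAGCTG, in 4271 of the 32851 windows). Of the 6 member windows, 2 held a SMAD site, in Acta2 and at another start of Postn. An AP-1 site (TGANTCA, 6.75% of all windows) had no match in the 6 windows, and Pdpn matched none of these motifs. These matches describe the letters of the windows on both strands and do not show binding.

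All 10 genes were lower on average in DRP-104 than in vehicle tumors of the normalized count table, by which they were selected. The mean log2(value + 1) difference ran from -2.18 for Cpxm1 to -0.31 for Acta2 (median -1.07, against -0.01 over the 15454 genes with a mean of at least 10). For 5 genes (Cpxm1, Cdh11, Fndc1, Pdpn and Thy1) every DRP-104 tumor was below every vehicle tumor. This held for 5.75% of all 15454 genes, and no inference is drawn from it, since the genes were chosen on these values. limma called 0% of the genes (0 of 15454, 775 at an unadjusted p under 0.05). edgeR called 0 genes (863 unadjusted) and DESeq2 called 56 (951 unadjusted).

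Cpxm1, a secreted carboxypeptidase-like protein, had 902, 2165 and 672 normalized counts in vehicle tumors 1 to 3 and 280.2, 266 and 186 in DRP-104 tumors 1 to 3. The DRP-104 mean was 19.6% of the vehicle mean, and vehicle tumor 2 stood highest by a wide margin. Cdh11, a cadherin of mesenchymal cells, had 701, 1112 and 437 normalized counts with vehicle and 215, 194 and 233 with DRP-104. Again vehicle tumor 2 was highest, while the DRP-104 tumors lay close together. Fndc1, a protein with fibronectin type III domains, had 727, 558 and 423 normalized counts with vehicle and 233, 217 and 197 with DRP-104, so the groups did not overlap. Pdpn, the membrane glycoprotein podoplanin that is used to sort CAFs, had 329, 381 and 218.5 normalized counts with vehicle. Its values with DRP-104 were 179.7, 119 and 142, and the groups were apart. By staining for podoplanin, aSMA (Acta2) and PDGFR, the paper reported no significant change of CAFs or their subtypes with DRP-104. That measure is protein in stained cells, and it was not compared with the RNA values here. Thy1 (CD90), a surface glycoprotein of fibroblasts that T cells also carry, had 1189, 871 and 927 normalized counts with vehicle and 803, 758 and 654 with DRP-104. Its lowest value was in DRP-104 tumor 3, the tumor with the high T cell markers.

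**Figure D1:**
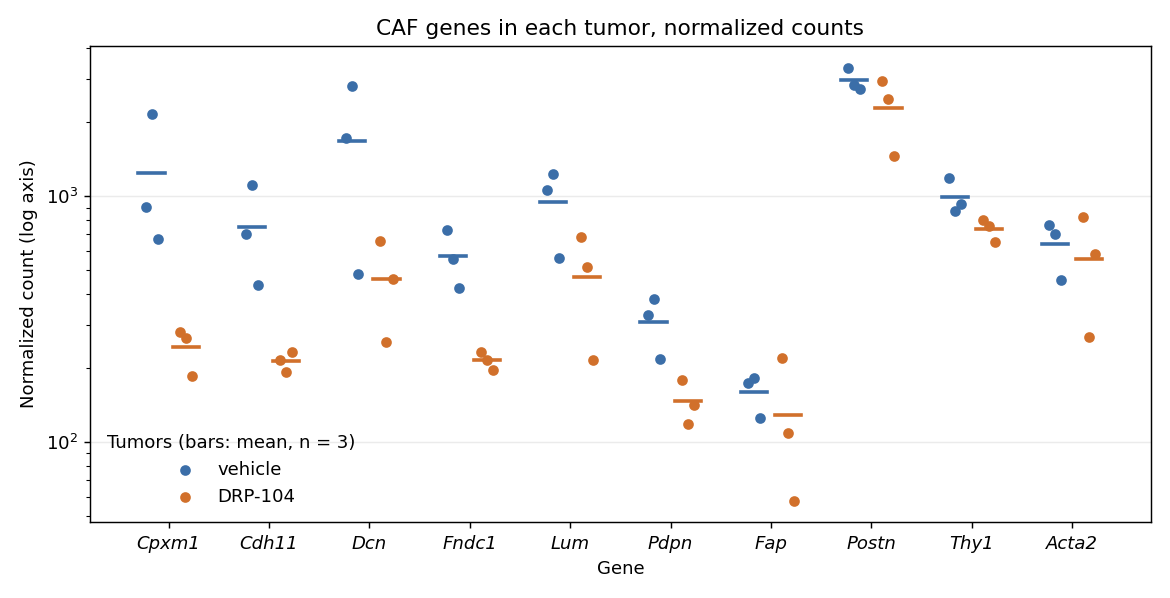
Normalized counts (log axis) of the 10 CAF genes in each of 3 vehicle and 3 DRP-104 tumors, ordered by the mean log2 difference, with bars at the group means. The groups do not overlap for Cpxm1, Cdh11, Fndc1, Pdpn and Thy1, and they overlap for the other 5.

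The proteoglycans overlapped between groups. Dcn had 1728, 2808 and 484 normalized counts with vehicle and 659.8, 256 and 463 with DRP-104. Vehicle tumor 3 lay below DRP-104 tumor 1, and the vehicle SD was 1163 at a vehicle mean of 1674. Lum had 1057, 1231 and 561 normalized counts with vehicle and 685, 514 and 216 with DRP-104. Here too vehicle tumor 3 lay within the range of the DRP-104 tumors. Postn encodes periostin, a matricellular protein, and had 3339.7, 2839 and 2739 normalized counts with vehicle and 2955, 2478 and 1458 with DRP-104. DRP-104 tumor 3 was the low value, and DRP-104 tumor 1 exceeded 2 of the vehicle tumors. Fap, a membrane serine protease that names activated fibroblasts, had 174, 182 and 125 normalized counts with vehicle and 220.3, 108 and 57.8 with DRP-104. Both its highest and its lowest value were in DRP-104 tumors. Acta2, the smooth muscle actin of myofibroblasts and pericytes, had 766, 704 and 455 normalized counts with vehicle and 823, 269 and 583 with DRP-104. Without DRP-104 tumor 2 its difference changed sign, to 0.15.

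The highest value fell in vehicle tumor 2 for 5 genes, in vehicle tumor 1 for 3 and in DRP-104 tumor 1 for 2 (Acta2 and Fap). The lowest fell in DRP-104 tumor 3 for 6 genes and in DRP-104 tumor 2 for 4. Averaged over the 10 genes, each centred on its own mean, the log2 level was 0.71, 0.90 and 0.00 in vehicle tumors 1 to 3 and -0.11, -0.68 and -0.81 in DRP-104 tumors 1 to 3. Vehicle tumor 3 and DRP-104 tumor 1 thus lay close to each other. DRP-104 tumor 1 had the fewest genes above 0 of the tumors, and the part of this in its CAF values was not tested. Without DRP-104 tumor 3 the median difference was -0.82 and the same 5 genes did not overlap. Leaving out this tumor moved the log2 difference of Fap from -0.50 to -0.03, of Postn from -0.43 to -0.13 and of Lum from -1.09 to -0.60. Those of Acta2, Dcn and Cdh11 moved further from 0. Without DRP-104 tumor 1 the number that did not overlap rose to 9, all but Acta2, and without vehicle tumor 3 it rose to 7. Smaller groups separate more easily, and the share over all genes was not computed with a tumor left out. No inference is drawn from these counts.

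In the FPKM table, which was not the one of the selection, none of the 10 passed the test (limma, 0 of 10, against 0% or 0 of 14212 genes with a mean FPKM of at least 0.5, 1081 at an unadjusted p under 0.05). The mean log2(FPKM + 1) difference was positive for 7 genes and negative for 3, with a median of 0.07 (-0.02 over all 14212 genes) and a range of -0.57 to 0.53. Whether the tumors of the tables differ in this was not tested.

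Thy1 had 39.8, 37.7 and 33.5 FPKM in the vehicle columns and 61.8, 51.9 and 41.8 in the DRP-104 columns. Every DRP-104 value was above every vehicle value, as for 9.61% of the genes tested. None of the 10 genes was lower in every DRP-104 column, as 9.65% of the genes were. The log2 difference was 0.46 (standard error 0.164, adjusted p = 0.62, limma), higher in 3 of 3 columns, and an exact two-sided permutation test gave p = 0.1, the smallest that 3 against 3 allows. The summed level of 12 T cell markers was 1.86 to 5.24 FPKM with DRP-104 and 3.71 to 5.40 with vehicle, and that of 12 pericyte and smooth muscle markers was 68.9 to 100.3 with DRP-104 and 57.7 to 67.7 with vehicle, with the groups apart. The part of either in the Thy1 values was not tested.

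Cpxm1 had 21.7, 36.0 and 19.6 FPKM with vehicle and 47.3, 38.2 and 26.6 with DRP-104. The log2 difference of 0.53 (95% confidence interval -0.12 to 1.18, adjusted p = 0.63, limma) did not pass the test, and 1 vehicle column lay among the DRP-104 columns. Dcn had 40.2, 105 and 59.1 FPKM with vehicle and 37.8, 52.2 and 38.0 with DRP-104. Its log2 difference of -0.57 (interval -1.34 to 0.20, adjusted p = 0.63, limma) was the lowest of the 10, and 1 vehicle column carried most of the vehicle mean. Postn had 49.8, 49.4 and 31.7 FPKM with vehicle and 39.8, 68.1 and 56.9 with DRP-104 (log2 difference 0.32, adjusted p = 0.64, limma). The groups overlapped for these genes.

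**Figure D2:**
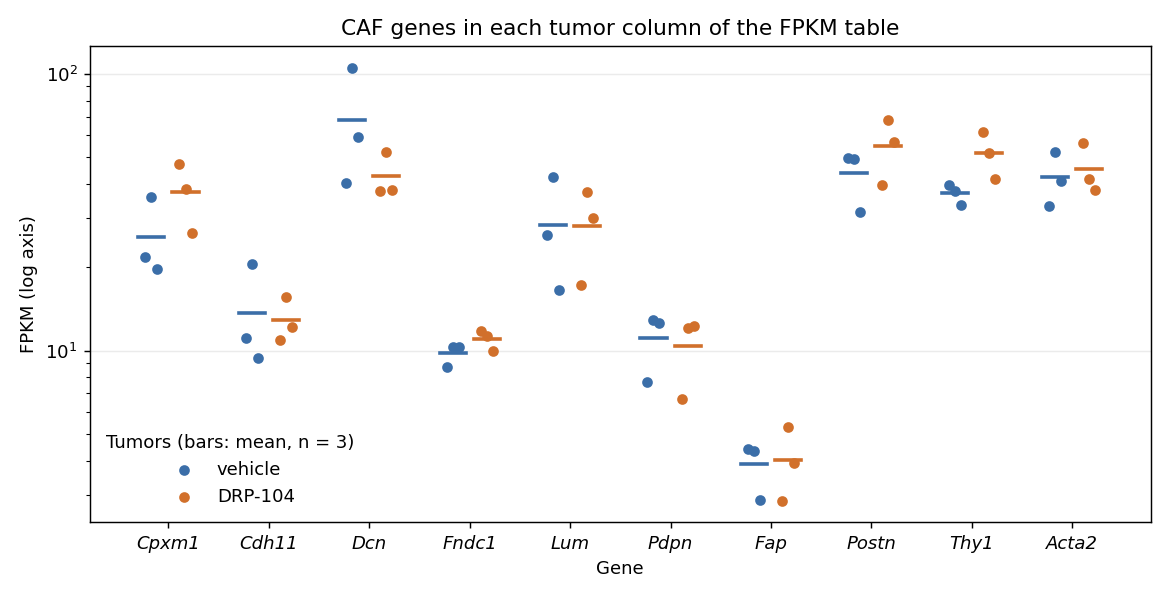
FPKM (log axis) of the same genes, in the same order, in the 3 vehicle and 3 DRP-104 columns of the FPKM table, with bars at the group means. The groups overlap for 9 genes and are apart for Thy1, which is higher in all 3 DRP-104 columns.

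The other 6 genes differed by at most 0.16 in either direction. Cdh11 had 11.1, 20.5 and 9.41 FPKM with vehicle and 10.9, 15.6 and 12.1 with DRP-104, and Lum had 26.2, 42.5 and 16.5 with vehicle and 17.3, 37.4 and 30.1 with DRP-104. Fndc1 had 8.70, 10.3 and 10.3 FPKM with vehicle and 11.7, 11.3 and 9.95 with DRP-104. The intervals show what the test could not separate: the 95% interval of the log2 difference was -0.68 to 0.64 for Cdh11, -0.87 to 0.92 for Lum and -0.15 to 0.47 for Fndc1. Pdpn had 7.69, 12.9 and 12.6 FPKM with vehicle and 6.69, 12.1 and 12.3 with DRP-104, so 1 column of each group was low. Fap ranged from 2.88 to 4.42 FPKM with vehicle and from 2.87 to 5.32 with DRP-104. Acta2 ranged from 33.4 to 52.2 with vehicle and from 38.1 to 56.3 with DRP-104, and neither gene separated the groups.

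**Figure D3:**
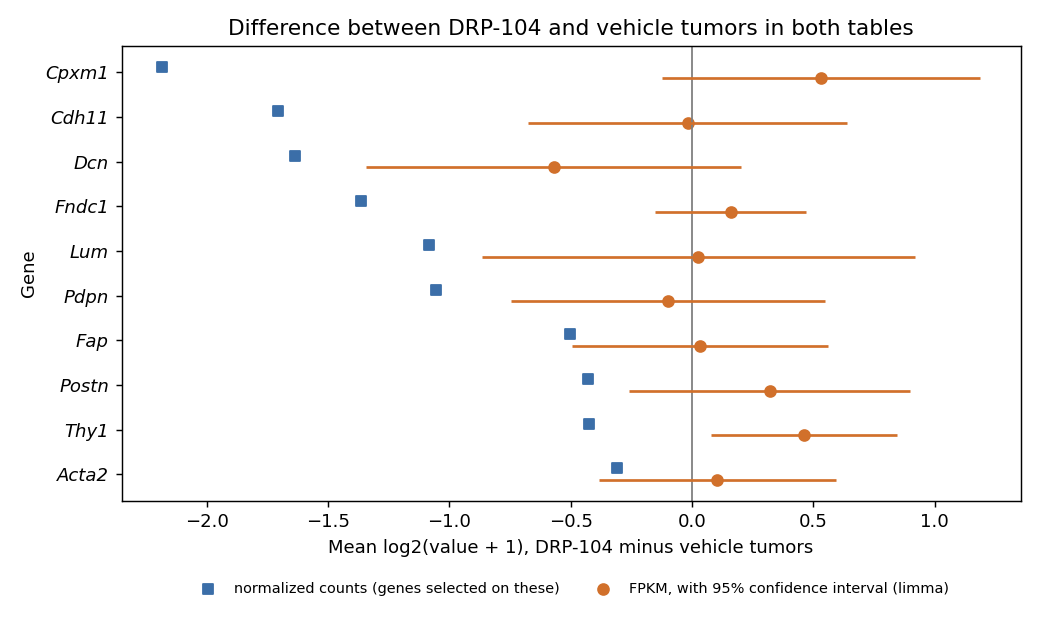
Mean log2(value + 1) of DRP-104 minus vehicle tumors for each gene in the normalized counts (squares, on which the genes were selected, shown without error) and in the FPKM table (circles with the 95% confidence interval of limma). All squares lie below 0, while 9 of the 10 intervals include 0 and that of Thy1 lies above it before adjustment.

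Among the members, all 45 pairs correlated above 0 over the 6 tumors of the normalized counts (median Pearson r 0.73, highest 0.97 for Cdh11 and Cpxm1, lowest 0.24 for Acta2 and Postn). In FPKM, again over 6 columns, 33 of 45 pairs did (median 0.30, lowest -0.58 for Pdpn and Thy1). These values describe 6 tumors of both treatments, and in the normalized counts the difference between groups is part of them. In both tables r was at least 0.8 for 3 pairs, all among Fap, Postn and Lum. Fap and Postn had r of 0.92 in the normalized counts and 0.90 in FPKM, Fap and Lum 0.89 in each, and Postn and Lum 0.91 and 0.82.

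The 10 genes outside the group whose log2 profile over the 6 tumors was most like the mean profile of the members were Col3a1, Loxl1, Gas7, Col1a2, Phf6, Serpinf1, Aga, Sparc, Mmrn2 and Cpeb1, with Pearson r from 0.98 to 0.99 in the normalized counts. Col3a1, a fibrillar collagen, had 23090, 33750 and 13221 normalized counts with vehicle and 11054, 7365 and 6426 with DRP-104. Loxl1, a lysyl oxidase that crosslinks elastin, had 1063, 1141 and 729 with vehicle and 587, 428 and 409.8 with DRP-104. Of the same genes, Phf6, Aga and Cpeb1 are not known as fibroblast genes, and control HY19636 cells held means of 1892, 671 and 62.5 normalized counts of them. In those cells Loxl1, Gas7 and Col1a2 were at 0. Over the FPKM columns, r with the members' mean profile was 0.28 for Col3a1 and Loxl1, and between 0.25 and 0.68 for all 10.

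In vehicle tumors the order of the members by level per length (RPKM, here the normalized count per kb of gene length and M of the library total) ran from Dcn (47.4 ± 32.2, SD, n = 3) through Postn (36.6 ± 5.22), Thy1 (30.8 ± 6.37), Cpxm1 (28.0 ± 17.4), Lum (24.5 ± 8.95), Acta2 (19.3 ± 5.31), Cdh11 (9.49 ± 4.14), Pdpn (9.11 ± 2.43) and Fndc1 (5.24 ± 1.57) to Fap (3.00 ± 0.60). Neighbors in this order overlapped in their 3 values except Fndc1 and Fap. In the vehicle columns of FPKM, Dcn was again first (68.2 ± 33.5, SD, n = 3), followed by Postn (43.6 ± 10.3) and Acta2 (42.2 ± 9.45), and Fap was last (3.89 ± 0.87). The CAF collagen Col3a1 stood at 224 ± 95.5 RPKM in vehicle tumors.

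Cultured HY19636 cells held almost no RNA of these genes. Acta2, Dcn, Fndc1, Lum, Pdpn, Postn and Thy1 were at 0 in all 9 culture libraries. Over the 3 control libraries, 102.5 M reads in all, 0 reads allow up to 3, and against that floor Postn was at least 5446-fold higher per M reads in vehicle tumors, Dcn at least 3086-fold, Thy1 at least 1825-fold, Lum at least 1747-fold, Acta2 at least 1179.9-fold, Fndc1 at least 1048-fold and Pdpn at least 568-fold. The tumor and culture tables were normalized separately and no test was made between them. These bounds cover counting error only, and 69.6% to 72.7% of genes with 1 to 20 reads in the control and DON libraries had an even number, so reads there may not be independent.

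Fap had 2 reads over the 3 control libraries, 0 after DON, and 0.00, 2.06 and 0.00 normalized counts without Gln. Cpxm1 had 8, 6 and 14 reads in the control libraries and 2, 4 and 11 after DON, with 11.5, 0.00 and 15.01 normalized counts without Gln. Cdh11 had 4, 2 and 0 reads in the control libraries and 6, 8 and 10 after DON. Without Gln it had 16.7, 10.3 and 12.01 normalized counts, against 4.74, 2.36 and 0.00 in controls, and every treated library was above every control. None of the 10 genes reached a mean of 10 normalized counts, so none entered the tests in which 68.1% of genes after DON (9226 of 13556) and 69.4% without Gln (9292 of 13390) were called. With no filter on low values, Cdh11 was called without Gln (log2 difference 2.36, 95% confidence interval 0.81 to 3.91, adjusted p = 0.0162, limma) and not after DON (1.64, interval 0.05 to 3.23, adjusted p = 0.0989, limma). Both treatments share the 3 control libraries, the difference between them was not tested, and the level of Cdh11 without Gln remained far below that in tumors.

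**Figure D4:**
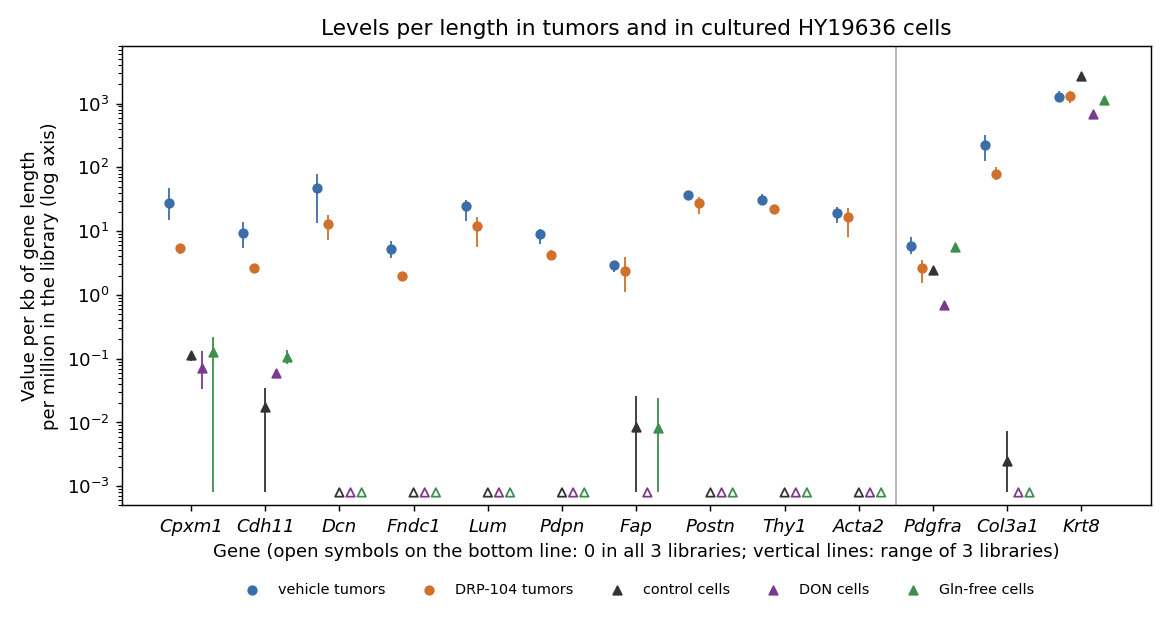
RPKM, as normalized counts per kb of gene length and M of the library total (log axis), of the 10 CAF genes, and of Pdgfra, Col3a1 and Krt8, as the mean and range of 3 libraries in tumors (circles) and HY19636 cultures (triangles). Open symbols mark genes at 0 in all 3 libraries: 7 of the 10 CAF genes are at 0 in every culture, while Krt8 and Pdgfra are present in both.

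The cultures held epithelial markers, as their label says, with Krt8 at 2728 ± 239 RPKM in control cells (SD, n = 3). In vehicle tumors Krt8 was lower, at 1277 ± 242 RPKM, while another marker of the epithelial list was higher there than in control cells. Of the 12 epithelial markers, 11 were above 0 in the control and DON cultures. Not every CAF-associated gene was absent from them. Pdgfra, a PDGF receptor and fibroblast marker, stood at 2.49 ± 0.28 RPKM in control cells and 5.83 ± 1.90 in vehicle tumors. It had 556, 621 and 456 normalized counts in control cells and 123, 154 and 139 after DON, a decrease (log2 difference -1.96 ± 0.164 SE, adjusted p = 1.29e-07, limma). The values without Gln were 1079, 1102 and 1059 against 524, 586 and 439.7 in controls, an increase (1.07 ± 0.119 SE, adjusted p = 4.4e-06, limma). Pdgfrb and Col1a2 were at 0 in the control and DON cells. Which cells carried the Pdgfra RNA of the tumors was not tested.

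Other genes of the CAF lists were read beside the members. In the normalized counts of tumors these lists are described without a test, since the members were selected in that contrast. Of 18 collagens and matrix genes, 16 were lower on average with DRP-104 and 11 did not overlap (median log2 difference -0.82, from -1.43 for Col3a1 to 0.43 for Ogn, a gene at 1.93 to 24.1 normalized counts). For matrix enzymes and their inhibitors, 16 of 18 were lower and 7 did not overlap (median -0.53). Ctsk, the protease cathepsin K, was lowest (-1.61) and the collagenase Mmp13 highest (0.27). Of 13 surface receptors, 12 were lower and 4 did not overlap (median -0.66, from -1.26 for the integrin Itga11 to 0.03 for Cd44). Values not overlapping in the lower direction made up 5.75% of all genes and in the higher direction 4.83%.

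In FPKM the same lists lay on the other side of 0. The median was 0.44 for collagens and matrix (17 of 18 higher on average), 0.21 for matrix enzymes (15 of 18) and 0.37 for surface receptors (10 of 13), and limma called 0 genes of each. Groups did not overlap, with DRP-104 higher, for 6 of 18, 2 of 18 and 4 of 13 genes of these lists, against 9.61% of all genes. The turn of sign was not particular to these lists. Medians in the normalized counts and FPKM were -0.50 and 0.27 for blood endothelial and -0.11 and 0.39 for macrophage markers. Mesothelial, neutrophil, B and plasma cell and adipocyte markers were below 0 in both. Col1a1, a chain of type I collagen, had 276, 323 and 199 FPKM with vehicle and 1278, 395 and 334 with DRP-104 (log2 difference 1.08, adjusted p = 0.63, limma), with 1 DRP-104 column far above the rest. In the normalized counts Col1a1 went from 17816, 24588 and 14244 with vehicle to 10293, 8286 and 5915 with DRP-104. The stromelysin Mmp3 had 3.50, 4.95 and 3.44 FPKM with vehicle and 8.83, 12.7 and 13.7 with DRP-104 (log2 difference 1.35, adjusted p = 0.22, limma), and the groups did not overlap.

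Of the CAF subtypes, the myofibroblastic list of 16 genes had a median of -0.38 in the normalized counts, with Cnn1 lowest (-1.31) and Ccn2 highest (0.56). In FPKM, where Ccn2 and Hopx were missing or below the filter and 14 genes remained, its median was 0.25. Cnn1 was again lowest there (-0.41) and Col12a1 highest (1.26, adjusted p = 0.29, limma). The inflammatory list had a median of -0.26 in the normalized counts (18 genes), from -2.12 for Cfd to 1.12 for Ly6c1, and 0.35 in FPKM (20 genes). There the chemokine Cxcl14 had 30.1, 26.4 and 18.8 FPKM with vehicle and 123, 81.9 and 75.0 with DRP-104 (log2 difference 1.85, adjusted p = 0.16, limma). The groups of Cxcl14 were apart, but the gene did not pass the test. The antigen-presenting list of 7 genes had a median of 1.46 in the normalized counts and -0.01 in FPKM. Cd74, the invariant chain of MHC class II, was at 22407 normalized counts in DRP-104 tumor 3 and at 495 to 4593 in the other 5 tumors. Macrophages, B cells and other immune cells also carry Cd74, and the part of the high T cell markers of that tumor was not tested.

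TGF-beta ligands, receptors and targets (14 genes) had a median of -0.22 in the normalized counts and 0.01 in FPKM. The ligand Tgfb2 was lowest in both, with 330, 267 and 109.7 normalized counts with vehicle against 71.7, 73.8 and 66.7 with DRP-104, and 1.77, 4.04 and 2.85 FPKM against 1.96, 2.01 and 1.83 (log2 difference -0.37, adjusted p = 0.63, limma). The highest was Ccn2 in the normalized counts (0.56) and the latent TGF-beta binding protein Ltbp2 in FPKM (0.85). Ccn2 was absent from the FPKM values, where the list held 13 genes. The hedgehog, PDGF and FGF list had a median of -0.03 in the normalized counts and 0.23 in FPKM, with Fgf1 lowest in both (-0.32 and -0.92, the second with adjusted p = 0.50, limma). Its highest genes were Shh in the normalized counts (1.18), which rested on DRP-104 tumor 3 with 177 counts against at most 9.83 elsewhere, and the ligand Pdgfa in FPKM (0.62). Shh was below the filter in FPKM.

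**Figure D5:**
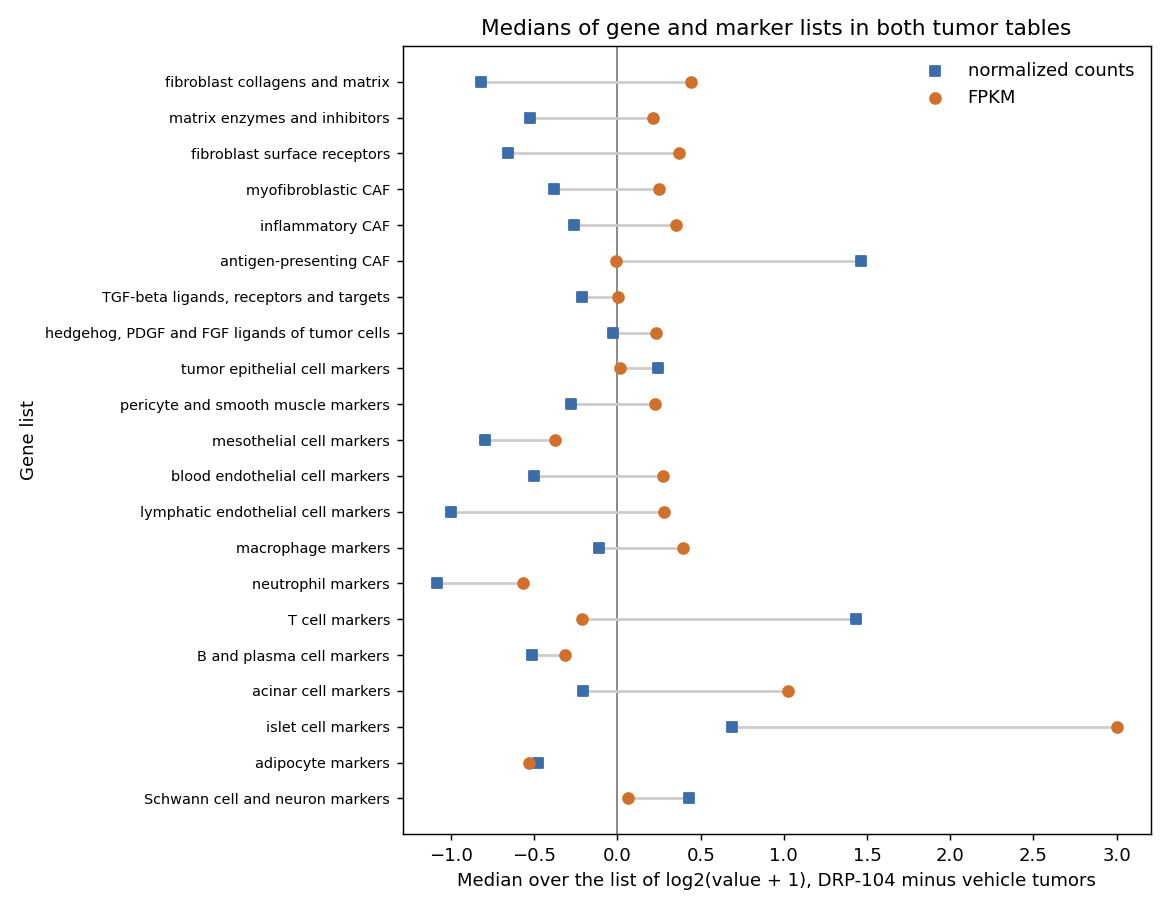
Median over each gene or marker list of the mean log2(value + 1) of DRP-104 minus vehicle tumors, in the normalized counts (squares) and in FPKM (circles). The lists of collagens and matrix, matrix enzymes, surface receptors, myofibroblastic and inflammatory CAF genes lie below 0 in the normalized counts and above 0 in FPKM. So do blood and lymphatic endothelial, pericyte and smooth muscle, macrophage and acinar markers, and less clearly the TGF-beta and hedgehog lists. Mesothelial, neutrophil, B and plasma cell and adipocyte markers lie below 0 in both. Epithelial, islet, and Schwann cell and neuron markers lie above 0 in both.

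In the cultures, which hold HY19636 cells alone, 68.1% of all genes tested were called in either direction after DON and 69.4% without Gln. Counting both directions, several lists lay near those shares. After DON 4706 of 13556 genes were called lower and 4520 higher, and without Gln 4667 of 13390 lower and 4625 higher. The counts of list genes that fell or rose stand beside these. After DON, 7 of the 9 collagens and matrix genes tested fell and 1 rose (median log2 difference -2.24, against 0.02 over all genes tested). Without Gln 7 of 9 fell and 0 rose (median -1.19, against 0.01). Col6a1, a chain of type VI collagen, went from 2242, 2769 and 2119 normalized counts to 386, 288 and 351 after DON (log2 difference -2.80, adjusted p = 5.48e-10, limma). Without Gln it reached 117, 115 and 214 (log2 difference -3.97, adjusted p = 5.05e-09, limma). The fibronectin gene Fn1 rose after DON by 0.47 (adjusted p = 0.028, limma), a call that was lost without any 1 of 4 libraries (DON library 1 or 3, control library 1 or 3), with adjusted p from 0.0585 to 0.16, and under DESeq2 (adjusted p = 0.107). Tnc, highest without Gln, had a log2 difference of 0.47 (adjusted p = 0.14, limma).

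Of the matrix enzymes, 12 of 13 tested fell after DON and 1 rose, and without Gln 10 of 12 fell and 2 rose. Loxl2, a lysyl oxidase, fell by 3.94 after DON and by 2.60 without Gln on the log2 scale (adjusted p = 1e-08 and 8.9e-08, limma), and the collagen prolyl hydroxylase P4ha1 rose by 0.34 after DON (adjusted p = 0.00364, limma). Of the surface receptors, 6 of 8 fell and 2 rose after DON, and 6 of 7 fell and 1 rose without Gln. Lrp1, an endocytic receptor, fell by 2.15 and 4.01 (adjusted p = 6.69e-08 and 1.87e-09, limma). Of the myofibroblastic list, 5 of 9 fell and 3 rose after DON, and 3 fell and 5 rose without Gln. Grem1, a secreted BMP antagonist, went from 804, 895 and 1176 normalized counts to 4830, 4002 and 4796 after DON (log2 difference 2.26, adjusted p = 3.14e-09, limma) and to 8057, 7708 and 9212 without Gln (3.21, adjusted p = 8.23e-10, limma).

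For the inflammatory list, 4 of 6 tested fell and 1 rose after DON, and 3 of 7 fell and 2 rose without Gln. Ptgs2, the prostaglandin synthase COX-2, rose by 2.02 and 3.96 (adjusted p = 7.4e-09 and 2.34e-10, limma), and the cytokine Lif fell by 2.99 after DON (adjusted p = 2.67e-08, limma). From the antigen-presenting list 2 genes were tested after DON, where Cd74 rose from a mean of 0.83 to 19.2 normalized counts (adjusted p = 0.000849, limma) and Nkain4 fell by 1.54 (adjusted p = 0.0163, limma), a call lost without control library 3 (adjusted p = 0.0663). Without Gln only Nkain4 was tested, and it was not called. In the TGF-beta list 8 of 10 fell and 1 rose after DON, and 7 of 11 fell and 3 rose without Gln. Its ligand Tgfb3 fell by 2.46 and 1.89 (adjusted p = 6.47e-08 and 2.31e-07, limma), while Skil, a SMAD corepressor, rose by 0.44 and 1.23 (adjusted p = 0.00455 and 1.99e-06, limma).

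The hedgehog, PDGF and FGF list holds ligands through which tumor cells can act on fibroblasts, and also hedgehog receptor and response genes (Ptch1, Gli1 and Hhip). Of these, 5 of 6 tested fell and 1 rose after DON, where 68.1% of all genes were called in either direction. Without Gln 3 of 7 fell and 2 rose, where 69.4% of all genes were called in either direction. Fgf1 had 861, 716 and 834 normalized counts in control cells and 5.97, 5.54 and 6.72 after DON (log2 difference -6.83, adjusted p = 2.73e-11, limma), and 41.8, 31.0 and 36.0 without Gln (-4.36, adjusted p = 7.24e-10, limma). All 3 treated libraries lay far below every control in both comparisons. Fgf2 fell by 3.45 and 2.18 (adjusted p = 3.89e-06 and 2.31e-07, limma), and Pdgfb fell by 1.87 after DON (adjusted p = 1.42e-08, limma). Pdgfa rose by 0.53 without Gln (adjusted p = 0.00109, limma), and Ptch1, the hedgehog receptor, rose by 0.33 after DON (adjusted p = 0.014, limma). The Ptch1 call was lost without DON library 2 (adjusted p = 0.0728) or 3 (adjusted p = 0.0538).

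Markers of other cell types moved beside the CAF genes in the tumors. The summed level of the other 5 CAF markers (Col1a1, Col1a2, Col3a1, Pdgfra and Pdgfrb) was 37985 to 78778 normalized counts with vehicle and 17791 to 30922 with DRP-104, and in FPKM it was 664 to 1067 and 933 to 2903. For 11 blood endothelial markers it was 3830.1 to 4430 normalized counts with vehicle and 2684 to 3587 with DRP-104, again apart, and 6 of the 11 were lower in every DRP-104 tumor, as 5.75% of all genes were. Its most abundant genes were Cdh5, with 1029.5, 962 and 1011 normalized counts with vehicle and 808, 865 and 368 with DRP-104, and Plvap, with 709, 775 and 678 against 408, 589 and 611. Endothelial FPKM overlapped, at 93.4 to 118 with vehicle and 106 to 154 with DRP-104. The 12 epithelial markers, led by Krt8 and Krt18, overlapped in both tables, with 126787 to 171064 normalized counts for vehicle and 139899 to 193162 for DRP-104. No marker of these 3 lists was at 0 throughout the tumors. The part of endothelial or epithelial RNA in the CAF values was not tested.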

How the data were processed

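RNA of 6 tumors and 9 cultures was sequenced by Novogene for the authors. Aligner HISAT2 and DESeq2 are named in the methods. The submitters' processing notes also name CASAVA, STAR 2.5 and GRCm39, while the coordinates of the FPKM table match GRCm38 (99.84% of genes with a shared identifier overlap). The counting tool and use of strand are not given in the sources used here. The authors deposited a signal per gene, the count divided by 1 size factor per library, in 1 table per comparison, and FPKM for tumors. Columns of the authors' own comparisons (fold changes and p-values) were not used. Dividing by the worth of 1 read returned whole reads (tolerance 0.0051) for at least 99.99% of values. In the third Gln-free library whole reads were not claimed, so count tests were run for tumors and DON only. The test was limma 3.58.1 (trend) in R 4.3.3 on log2(value + 1), for genes with a mean of at least 10 normalized counts, or 0.5 FPKM, over the 6 libraries of a comparison. Benjamini-Hochberg adjusted p-values under 0.05 were called. Alternatives were edgeR 4.0.16, DESeq2 1.42.0, other filters, pseudocounts, quantile normalization and leaving out each library. Tables were handled in Python with pandas 2.3.3, numpy 2.4.6, scipy 1.17.1 and matplotlib 3.10.9.

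The members and gene lists were chosen with earlier results of these data known. Named genes were all members, the highest and lowest of each list per comparison, up to 3 called genes with the largest change in cultures, the 10 genes nearest to the members' mean profile (mean of at least 100), and the 2 most abundant genes of a marker list that moved with members. Replicates are separate samples by their labels, and p-values measure the spread between them. Levels per length (RPKM) are values per M of the library total and kb of the gene length that the FPKM table gives. One allele of the line and one epithelial marker are not reported here.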

Additional observations from a re-analysis of the deposited data

Results flagged for a closer look

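Thy1 differed in opposite directions between the tumors of the normalized counts and the columns of the FPKM table. Its log2 difference of DRP-104 minus vehicle was -0.42 in the normalized counts, with all 3 DRP-104 tumors below all 3 vehicle tumors. In FPKM it was 0.46, with all 3 DRP-104 columns above all 3 vehicle columns. Of all genes tested, 5.75% were likewise apart and lower in the normalized counts, and 9.61% apart and higher in FPKM. The mean difference was negative in the normalized counts and positive in FPKM for 7 of the 10 members, among them Cpxm1 (-2.18 and 0.53). Thy1 was selected on its values in the normalized counts, and the difference between the tables was not tested.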

How the results depend on the processing

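The median log2 difference of the members in the normalized counts, a value with no test, was -1.12 to -1.04 under other filters, pseudocounts, scaling and tools, and -1.36 to -0.82 when each library was left out in turn. In FPKM it was 0.07 under each other setting and -0.00 to 0.28 with each column left out. DESeq2 on whole reads called 56 genes between tumor groups in the normalized counts (27 higher, 29 lower), against 0 with limma and edgeR, and the cause was not tested. Leaving out each FPKM column gave 0 to 1 genes called, with 1 when the first column of either group was left out. Without a filter on low values, Cdh11 was the 1 member called without Gln. Leave-one-out turned the sign of FPKM differences that were near 0 and not called: Acta2 (range -0.059 to 0.27, turned at -0.059 and -0.049 without the first DRP-104 or first vehicle column), Pdpn (range -0.32 to 0.16, turned at 0.16 without DRP-104 column 1, 0.02 without vehicle column 2, 0.00 without vehicle column 3), Cdh11 (range -0.23 to 0.29, turned at 0.085, 0.015 and 0.29 without DRP-104 column 1, DRP-104 column 3 and vehicle column 2), Fap (range -0.14 to 0.21, turned at -0.14 without DRP-104 column 2, -0.12 without vehicle column 3) and Lum (range -0.30 to 0.36, turned at -0.20, -0.052 and -0.30 without DRP-104 column 2, DRP-104 column 3 and vehicle column 3). Counts of genes called in the cultures stayed within 1.5 times under every setting, and 13 of 1136 refits of the genes named in cultures lost the call, none with a changed sign. Quantile normalization moved the median log2 difference of all genes after DON from 0.02 to 0.13.

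Libraries of one number did not all deviate together from their group means in any table (correlations -0.27, 0.04 and -0.36 in the normalized counts of tumors, -0.12, -0.05 and 0.11 in FPKM, and -0.03 to 0.03 in the cultures), so the numbers were not taken as pairs. With the replicate block, limma called 0 genes between tumor groups in the normalized counts (557 at an unadjusted p under 0.05) and 0 in FPKM (1068), 9216 after DON and 9056 without Gln, and no member was called. Numbers of the control and FPKM columns are those of their headers. edgeR and DESeq2 were not run without Gln. With 3 samples a group and a median residual SD of 0.32 in the normalized counts and 0.22 in FPKM, small differences were not detectable. Large ones could also go uncalled, as Cxcl14 did in FPKM (log2 difference 1.85, adjusted p = 0.16, limma). The smallest adjusted p over all genes was 0.82 in the normalized counts and 0.15 in FPKM (limma).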

Other observations

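Marker lists of cells other than fibroblasts, endothelium and epithelium showed how the 6 tumors and the 6 FPKM columns differed in content. Summed over 7 islet markers, FPKM was 326 to 1214 with DRP-104 and 14.3 to 233 with vehicle, and 5 of the 7 were higher in every DRP-104 column, as 9.61% of all genes were. Ins2, an insulin gene, had 217, 758 and 683 FPKM with DRP-104 and 149, 8.38 and 25.9 with vehicle, and normalized counts of 280.2, 35.8 and 89.2 against 20.6, 23.2 and 141.5. Acinar markers ranged from 616 to 3814 FPKM with DRP-104 and from 183 to 1033 with vehicle, and from 198 to 1020.2 and 164 to 2839 in normalized counts. Cd8a, a T cell coreceptor, reached 501 normalized counts in DRP-104 tumor 3, with no other tumor above 1.79.

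Of the remaining lists in normalized counts, vehicle and DRP-104 tumors overlapped for pericyte and smooth muscle markers (2189 to 3000.1 and 1535 to 2605), mesothelial markers (7999.97 to 18842 and 8939 to 11805), lymphatic endothelial markers (349 to 1154 and 185 to 564), macrophage markers (6526 to 9162 and 4279.6 to 8741), neutrophil markers (83.8 to 505 and 36.9 to 583), B and plasma cell markers (24.1 to 358 and 17.1 to 315), adipocyte markers (123 to 738 and 72.7 to 325) and Schwann cell and neuron markers (1879 to 2606 and 1015 to 3096). Among defining markers, Amy2a5 (acinar) and Lep (adipocyte) were at 0 in all 6 tumors. In the control and DON cultures all 7 islet markers and 6 of 12 T cell markers were at 0.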
